A study of Mus musculus with 140 samples.

Results

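The Serpin genes encode serpins, a large family of protease inhibitors, and were described here by the silencer intervals listed around them in mouse embryonic fibroblasts (MEFs) and mouse embryonic stem cells (mESCs). Members were the protein-coding autosomal genes of the mm10 annotation (GENCODE M21) whose symbol starts with Serpin, which gave 60 of 20807 autosomal protein-coding genes. A gene's region ran from 10 kb before its body to 10 kb after it. These regions, merged where they overlapped, covered 2240 kb and held 212 of the 204761 listed intervals, 101 of 89596 in the MEF list and 111 of 115165 in the mESC list. Of the 60 genes, 11 Serpinb genes formed a cluster on chr1, 23 Serpina genes a cluster on chr12 and 15 Serpinb genes a cluster on chr13, and the other 11 genes lay apart from these clusters.

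The study screened the mouse genome for silencers, DNA that lowers transcription, with Ss-STARR-seq, in which pieces of sonicated genomic DNA are inserted in a reporter vector, and the RNA it yields in transfected cells is sequenced, as is the plasmid pool. The labels describe 20 input plasmid libraries, with hPGK in their titles, 64 libraries of reporter RNA from MEFs and 56 from mESCs. The MEFs were grown in DMEM with serum and the mESCs in N2B27 medium with 2i and LIF. Titles group the reporter RNA libraries of each cell type into numbered output sets, so the library counts need not be counts of separate cell cultures. No genotype, strain, sex or animal is given for either cell type, and no treatment separates the groups beyond the medium. One interval list per cell type was analysed, so no difference between MEFs and mESCs had a replicate check, and cell type, medium and library set cannot be told apart. Because fragments were read from plasmids, an interval near a gene describes the fragment and not the level of the gene in these cells.

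A serpin offers a protease a loop that resembles its substrate, and when the protease cuts this loop the serpin refolds and locks the enzyme in an inactive complex. Clade A serpins are mostly secreted by the liver and act on blood and inflammatory proteases, clade B serpins mostly stay inside cells, and clades C to I include the main inhibitors of clotting, fibrinolysis and complement. Several serpins no longer inhibit proteases and serve as carriers of hormones or as chaperones. Rodents carry many more copies than humans of several clade A and clade B genes, in arrays of close paralogs.

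The sequences below are the intervals of highest fold near a Serpin gene, the promoter intervals of up to 300 bases and 1 near-copy pair of the chr12 cluster. Fold here means the authors' linear ratio for an interval, above 2 for each listed interval, and the sources used here do not say which libraries enter it. Sequences were read from GRCm38.p6 on the plus strand at the listed coordinates, which may be off by 1 bp. Capitals in the first group mark matches, on either strand, to 1 of 14 short motifs described further on, and 1 of the 6 sequences held such a match, CATTCC of TEAD factors read on the minus strand.
Highest MEF fold, 10.9, intron of Serpinb3b, chr1:107177841-107177991: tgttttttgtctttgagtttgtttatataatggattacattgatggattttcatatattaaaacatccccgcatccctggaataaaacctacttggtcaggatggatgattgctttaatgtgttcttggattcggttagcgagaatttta
Highest mESC fold, 9.48, near Serpinb1a, chr13:32860597-32860697: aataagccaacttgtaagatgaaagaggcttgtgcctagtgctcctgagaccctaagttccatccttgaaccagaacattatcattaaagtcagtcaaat
Serpinb12 promoter, MEF fold 7.83, chr1:106939551-106939751: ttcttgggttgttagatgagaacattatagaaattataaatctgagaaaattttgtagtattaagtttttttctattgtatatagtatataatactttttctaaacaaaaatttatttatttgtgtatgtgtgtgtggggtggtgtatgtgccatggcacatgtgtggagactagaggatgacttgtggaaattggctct
Serpinb13 promoter, MEF fold 2.25, chr1:106981101-106981301: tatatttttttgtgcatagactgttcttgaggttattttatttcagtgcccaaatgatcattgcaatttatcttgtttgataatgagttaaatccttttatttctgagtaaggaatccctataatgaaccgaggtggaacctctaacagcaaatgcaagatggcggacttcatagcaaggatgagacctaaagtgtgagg
Serpinb3b promoter, MEF fold 2.15, chr1:107160879-107160929: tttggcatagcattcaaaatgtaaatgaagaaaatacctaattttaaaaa
Serpinb9f promoter, mESC fold 2.95, chr13:33323001-33323101: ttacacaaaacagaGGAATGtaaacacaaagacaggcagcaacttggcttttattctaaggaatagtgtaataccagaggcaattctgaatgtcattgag

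In the near-copy pair, capitals mark the substitutions between the listed interval and its copy. Capitals also mark the first 3 bases of the listed interval, which lie beyond the printed copy and were not compared. The listed interval lies downstream of Serpina1b, an antitrypsin gene, and has fold 6.07 in the MEF list, where an overlapping mESC interval has 3.39. Its closest copy in the cluster lies inside the annotated body of the same gene, and no interval of either list overlaps it. Over 197 aligned bases the 2 sequences were 95.4% identical, with 9 substitutions.
Listed interval, chr12:103718929-103719129: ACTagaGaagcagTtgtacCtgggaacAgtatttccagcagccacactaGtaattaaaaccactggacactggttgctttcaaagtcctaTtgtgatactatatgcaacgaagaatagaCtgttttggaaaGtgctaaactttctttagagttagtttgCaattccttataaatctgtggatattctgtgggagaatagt
Unlisted copy, chr12:103791661-103791858: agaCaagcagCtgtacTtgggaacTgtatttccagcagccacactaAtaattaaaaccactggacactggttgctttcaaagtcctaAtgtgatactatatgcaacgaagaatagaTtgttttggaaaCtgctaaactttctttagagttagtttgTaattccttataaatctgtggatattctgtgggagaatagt

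Across the family, 42 of 60 genes had at least 1 MEF interval and 47 had at least 1 mESC interval, while 8 had none of either list. Over all autosomal protein-coding genes, 70.3% had a MEF interval, 77.3% had an mESC interval and 16.2% had neither, so the family counts lay near the background. More mESC than MEF intervals were found at 23 members, more MEF than mESC at 19 and equal numbers above 0 at 10. Over all autosomal protein-coding genes, 46.8% had more mESC and 20.4% had more MEF intervals, and the larger mESC list sets that background. The density in the merged regions was 45.0 MEF intervals per Mb (95% Poisson interval 36.7 to 54.7), against 36.6 per Mb over the autosomes, and 49.5 mESC intervals per Mb (40.7 to 59.6), against 47.1. These family values hid opposite patterns in the clusters on chr1 and chr12. Poisson and exact binomial intervals cover counting error only, and the depth behind a listed interval is unknown.

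**Figure D1:**
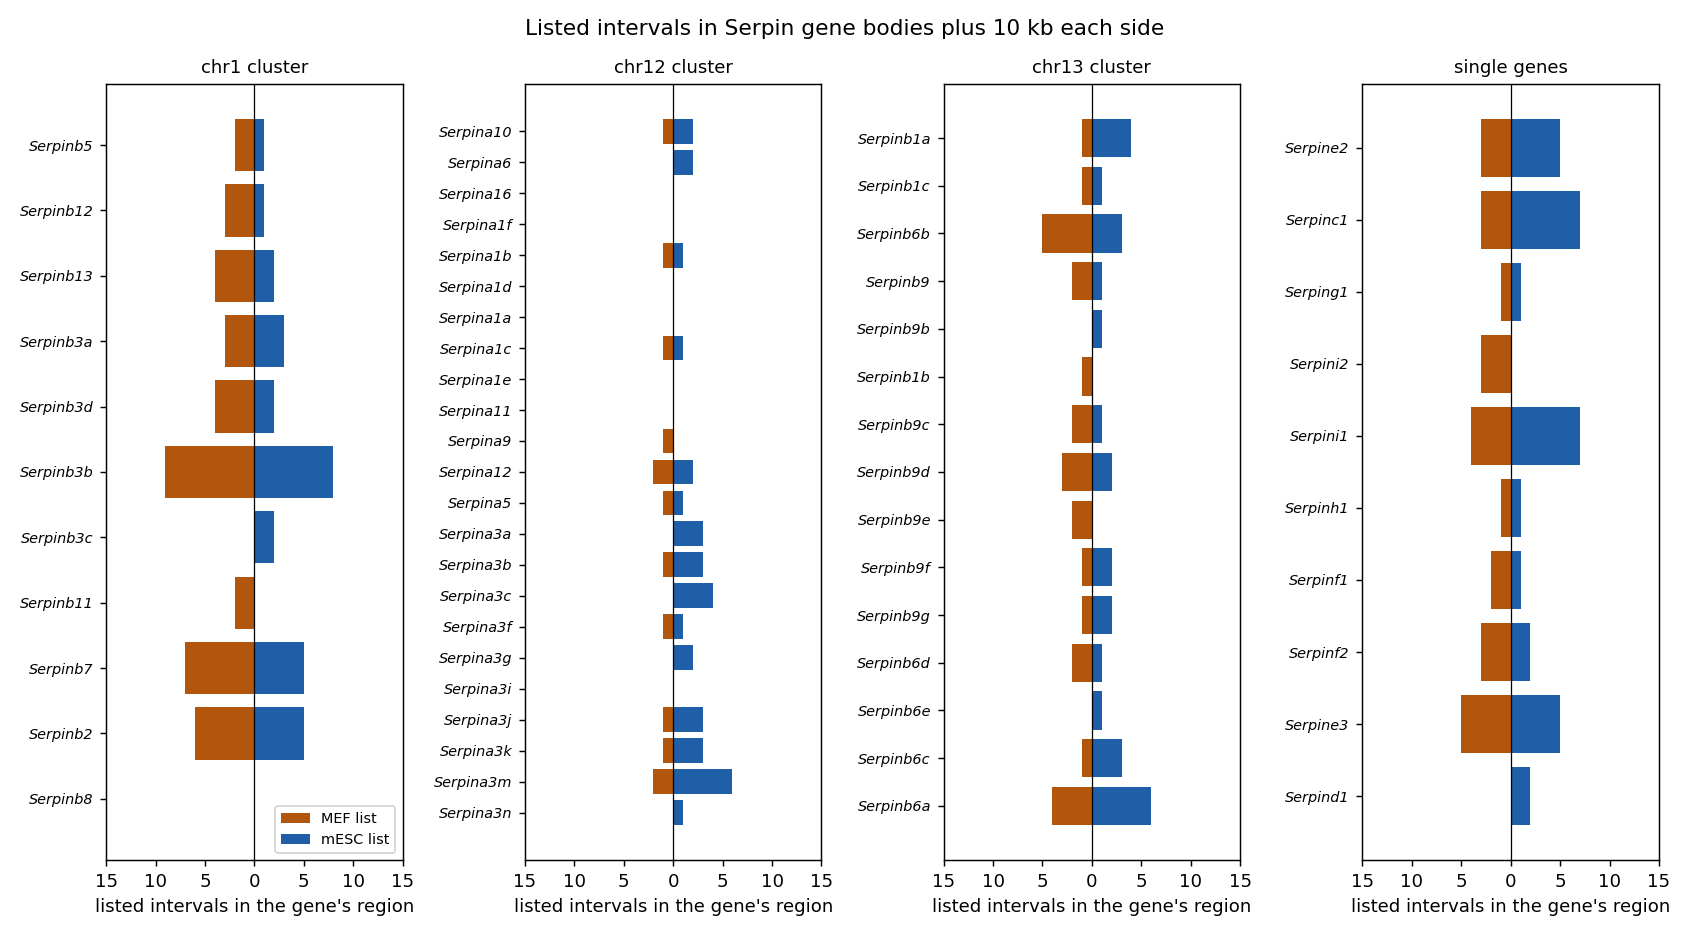
Number of MEF intervals (left, orange) and mESC intervals (right, blue) in the body plus 10 kb of the Serpin genes, by cluster and in chromosome order. One of the single genes is not drawn. On chr1, 8 of 11 genes have more MEF than mESC intervals, beside 20.4% of all autosomal protein-coding genes. On chr12, 1 of 23 genes has more MEF and 10 have more mESC intervals, beside 20.4% and 46.8% of all autosomal protein-coding genes, and 7 have none.

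The chr1 cluster held 40 MEF and 27 mESC intervals in 518 kb. MEF density was 77.3 per Mb (55.2 to 105), 2.11 times the autosomal density, and mESC density was 52.2 per Mb (34.4 to 75.9), 1.11 times. The chr12 cluster held 11 MEF and 26 mESC intervals in 665 kb, 16.5 MEF intervals per Mb (8.25 to 29.6), or 0.451 times the autosomes, and 39.1 mESC intervals per Mb (25.5 to 57.3), or 0.829 times. The chr13 cluster, with 26 MEF and 27 mESC intervals in 553 kb, stood at 47.0 and 48.8 per Mb. The single genes, with 24 and 31 intervals in 507 kb, stood at 47.3 and 61.1 per Mb. The Poisson interval for MEF density lay above the autosomal density on chr1, below it on chr12 and spanned it for the other groups. The mESC interval spanned the autosomal density in all 4 groups. Neighbouring intervals are not independent, so these limits are too narrow to serve as a test.

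**Figure D2:**
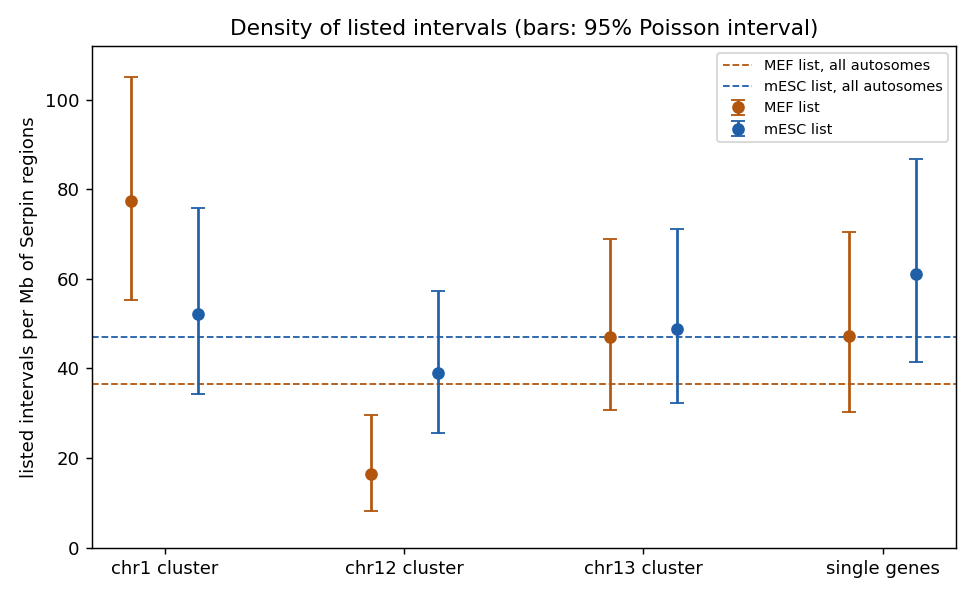
Listed intervals per Mb of Serpin regions for each cluster and the single genes, with 95% Poisson intervals, and the autosomal densities as dashed lines. The chr1 cluster stands at 77.3 MEF intervals per Mb and the chr12 cluster at 16.5, on either side of the autosomal 36.6.

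The share of intervals that came from the mESC list was lowest on chr1 and highest on chr12. It was 40.3% on chr1 (exact binomial 95% interval 28.5 to 53.0), 50.9% on chr13 (36.8 to 64.9), 56.4% at the single genes (42.3 to 69.7) and 70.3% on chr12 (53.0 to 84.1), against 56.2% over the autosomes. Only the chr1 interval excluded the autosomal share, and those of chr1 and chr12 met at 53.0%. A two-sided exact binomial test of the mESC share against its genome-wide value was run on the 3549 protein-coding genes with at least 10 intervals, and Benjamini-Hochberg adjustment called 0% toward MEFs and 0% toward mESCs. The 7 members with enough intervals were Serpinb3b, Serpinb7, Serpinb2, Serpinc1, Serpinb6a, Serpine3 and Serpini1, and each had an adjusted p of 1. None of these 7 reached an unadjusted p of 0.05 (lowest 0.387), which 30 of the 3549 genes did. Where a MEF and an mESC interval overlap, 1 site counts for both lists, as for 47.2% of MEF intervals over the autosomes. The test treats such intervals as independent, so its p-values are not exact. A lack of calls is therefore no evidence that the shares are alike. The same test on 2537 bins of 1 Mb called 0% in either direction, with 43 bins at an unadjusted p under 0.05. The bins that hold the clusters, an analysis chosen after seeing the data, had mESC shares between 48.9% and 61.5% and unadjusted p-values from 0.172 to 1. The chr1 bin with Serpinb3b held 47 MEF and 45 mESC intervals, and the chr12 bin with the Serpina3 genes held 25 and 40.

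The chr1 cluster holds clade B serpins, several of them known from skin and other epithelia. There 8 of 11 genes had more MEF than mESC intervals, 1 had more mESC, 1 had equal numbers and Serpinb8 had none. Among all autosomal protein-coding genes, 20.4% had more MEF intervals, 46.8% had more mESC intervals and 16.2% had none. The median member stood at the 83.1 percentile of MEF density and the 57.2 percentile of mESC density among autosomal genes of like region length (within 20%). Serpinb3b, a squamous cell carcinoma antigen serpin that blocks cysteine and serine proteases, held 9 MEF and 8 mESC intervals, the most of any member. Its annotated body spans over 100 kb and overlaps that of Serpinb3c, so its region was the longest of all members at 144 kb and its MEF density, 62.3 per Mb, was lower than that of several neighbours. Serpinb7, known as megsin from kidney mesangial cells, held 7 and 5. Serpinb2, a gene of macrophages and stressed cells, held 6 and 5, at 136 MEF intervals per Mb, the 98.5 percentile. Of those 11 intervals, 7 had their midpoint inside the neighbouring Serpinb10, which the annotation does not class as protein-coding.

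The other chr1 members gave smaller counts. Serpinb3d, a paralog of Serpinb3b, held 4 MEF and 2 mESC intervals in 25.3 kb, or 158 MEF intervals per Mb (98.7 percentile). Serpinb3a held 3 and 3, all in its flanks, at 3 sites whose coordinates were identical between the lists. Serpinb3c held 0 MEF and 2 mESC intervals, and Serpinb11 held 2 MEF and 0 mESC. Serpinb13, or headpin, a keratinocyte inhibitor of cathepsins, held 4 MEF and 2 mESC intervals, and Serpinb12 held 3 and 1. Serpinb5, or maspin, an epithelial serpin that does not inhibit proteases, held 2 and 1. The 40.5 kb region of Serpinb8, an inhibitor of furin-like proteases, held no interval of either list, while the region of Serpinb2, the nearest other member, held 11.

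**Figure D3:**
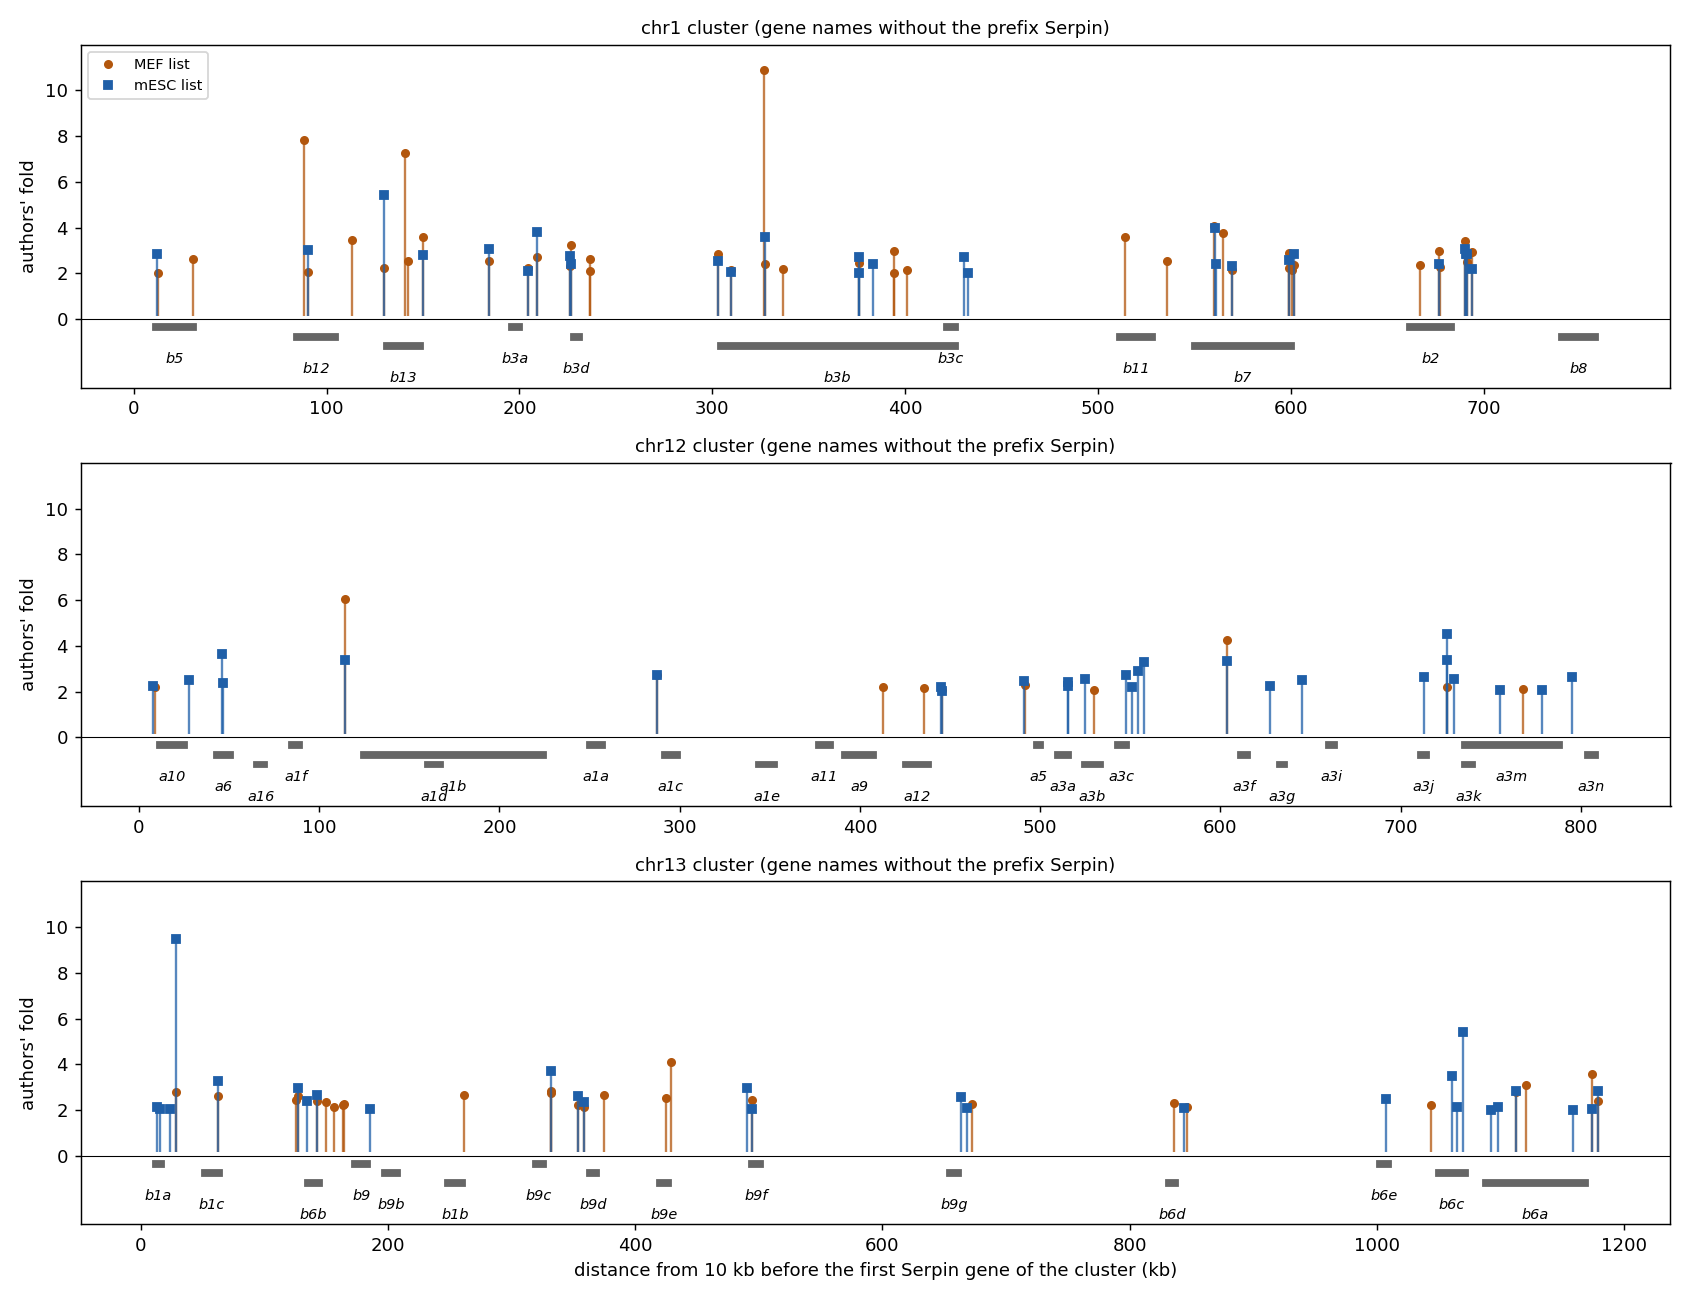
Intervals along the 3 clusters, as distance in kb from 10 kb before the first Serpin gene, with the authors' fold on the vertical axis (MEF circles, mESC squares) and Serpin gene bodies as grey bars. Only intervals within 10 kb of a member are drawn. On chr12 a stretch of 121 kb over Serpina1b and Serpina1d is empty in both lists.

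Sharing between the lists was uneven on chr1. Of the 27 mESC intervals there, 22 overlapped a MEF interval by at least 1 bp, or 81.5% (61.9 to 93.7), against 36.6% over the autosomes. Of the 40 MEF intervals, 21 overlapped an mESC interval, or 52.5% (36.1 to 68.5), against 47.2%. The remainder were 19 MEF-only and 5 mESC-only intervals. On chr12 the order of these list-only counts was the opposite, with 5 MEF-only and 19 mESC-only intervals. The mESC list gave 20.8% of list-only intervals on chr1 and 79.2% on chr12, against 60.7% over the autosomes. On chr12, 26.9% of mESC intervals (11.6 to 47.8) overlapped the MEF list, and 54.5% of MEF intervals (23.4 to 83.3) overlapped the mESC list. On chr13, 38.5% of MEF and 33.3% of mESC intervals were shared, and at the single genes 62.5% and 48.4%. Over all members, 7 sites had identical coordinates in the MEF and mESC lists, and the one with the highest MEF fold lay in an intron of Serpinb6a (chr13:33944751-33945051), at 2.78 in MEFs and 2.82 in mESCs.

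Among MEF intervals near Serpin genes, the 3 highest folds lay on chr1. The interval of fold 10.9 in an intron of Serpinb3b, at the 99.8 percentile of the MEF list, was 150 bp long, lay wholly in soft-masked repeat and overlapped no mESC interval. Sequences at least 90% identical to it over at least 80% of its length occurred at 6 other places in the regions of the cluster, the closest (97.3%) near Serpinb5. The interval of fold 7.83 lay within 1 kb of an annotated transcript start of Serpinb12, and the interval of fold 7.26, of 100 bp (chr1:106992001-106992101), in an intron of Serpinb13. Both were absent from the mESC list. Among mESC intervals near Serpin genes the highest fold, 9.48, at the 99.4 percentile of the mESC list, belonged to a 100 bp interval in an intron of the pseudogene Serpinb1-ps1 on chr13, at -9.46 kb from the start of Serpinb1a (minus is upstream), where the overlapping MEF interval had 2.78. Next came 3 intervals of fold 5.42, at the Serpinb13 promoter (chr1:106980985-106981385), in an intron of Serpinb6c (chr13:33901881-33901931) and in an intron of Ints6 beside Serpine3 (chr14:62701998-62702248).

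Fold values came in steps, which limits how finely intervals can be ranked. The commonest fold was 2.72 in the MEF list, at 3051 intervals, and 2.71 in the mESC list, at 4086. The fold of 10.9 was 4.00 times the first of these and was shared by 35 MEF intervals. The fold of 5.42 was 2.00 times the second and was shared by 420 mESC intervals. Of the member intervals, 96 of 101 (MEF) and 105 of 111 (mESC) carried a value found at 10 or more intervals of their list, against 94% and 94.4% over the lists. Among members, the median fold on chr1 was 2.53 in MEFs and 2.71 in mESCs, and on chr12 2.19 and 2.52. The autosomal medians were 2.36 and 2.41. On chr13 the medians were 2.44 and 2.40, and at the single genes 2.27 and 2.35.

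**Figure D4:**
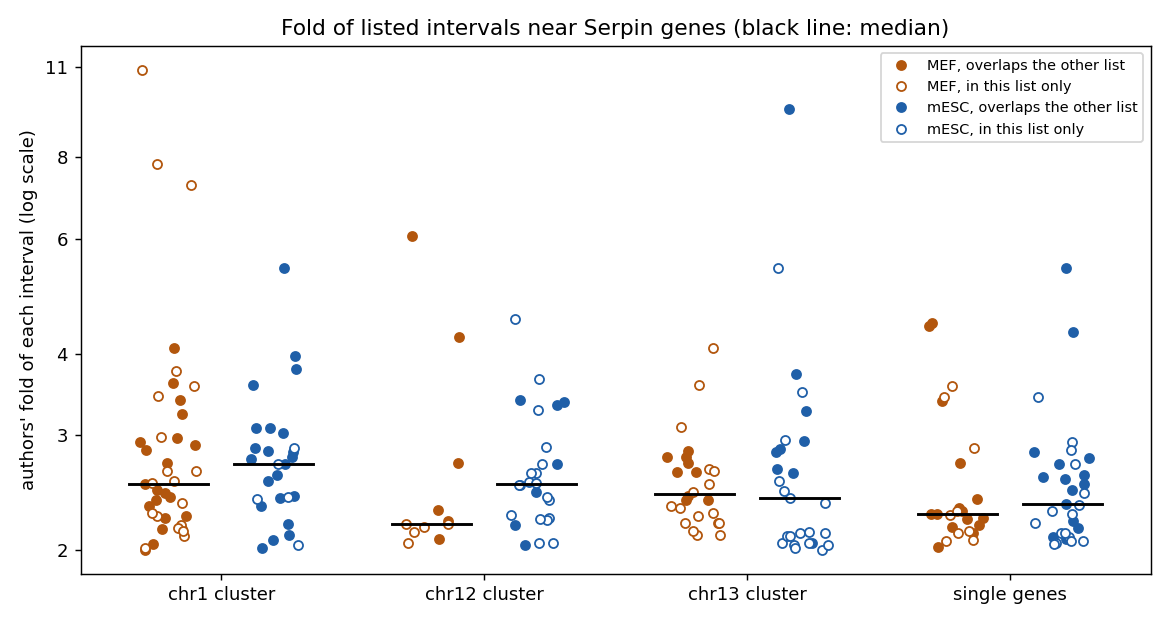
The authors' fold of each interval near a Serpin gene on a log axis, by cluster and list. Filled points overlap the other list, open points do not, and black lines are medians. The 3 highest MEF folds (10.9, 7.83 and 7.26) are open points of the chr1 cluster, and chr12 has 11 MEF against 26 mESC points.

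On chr12, the cluster of secreted clade A serpins, 10 of 23 genes had more mESC than MEF intervals, 1 had more MEF, 5 had equal numbers above 0 and 7 had none. Over all autosomal protein-coding genes 46.8% had more mESC and 20.4% more MEF intervals, so the count of genes with more mESC intervals lay near the background. The genes with none were Serpina16, Serpina1f, Serpina1d, Serpina1a, Serpina1e, Serpina11 and Serpina3i. All 7 have a region of 25 to 35 kb, a length class of 5717 autosomal genes in which 57.1% had a MEF interval, 67% an mESC interval and 23.8% none. Of the 38 members in that class, 21 had a MEF interval, 30 an mESC interval and 7 none, and the 18 of them on chr12 included each of the 7 empty genes. The median chr12 member stood at the 24.0 percentile of MEF density and the 50.6 percentile of mESC density among genes of like length.

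Divided by gene type, a division made after the values were seen, the chr12 cluster was not uniform. The 6 Serpina1 genes are relatives of human antitrypsin, which blocks neutrophil elastase. They held 2 MEF and 2 mESC intervals in 242 kb, 8.28 per Mb in each list (1.00 to 29.9). These were 1 overlapping pair downstream of Serpina1b, shown above, and 1 downstream of Serpina1c, of fold 2.72 (MEF) and 2.71 (mESC). The 10 Serpina3 genes, relatives of antichymotrypsin, which blocks cathepsin G, held 4 MEF and 17 mESC intervals in 255 kb. Their mESC share was 81.0% (58.1 to 94.6). Their mESC density was 66.8 per Mb, 1.42 times the autosomes, beside a MEF density of 15.7 per Mb, or 0.429 times. For these genes both Poisson intervals spanned the autosomal density, with a lower mESC limit of 38.9 and MEF limits of 4.28 and 40.2. Of these genes, 8 had more mESC intervals, beside 46.8% of all autosomal protein-coding genes, 1 had equal numbers and 1 had none. The 8 are not separate observations, because regions of neighbours overlap. Serpina3a and Serpina3b had the same 3 mESC intervals, and the 3 of Serpina3k and the 1 of Serpina3n also counted for Serpina3m. Of the 17 mESC intervals, 15 overlapped no MEF interval. The other 2 made a shared part of 11.8% (1.46 to 36.4), against 36.6% of mESC intervals over the autosomes.

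Within the Serpina3 genes, Serpina3m held 2 MEF and 6 mESC intervals, the most in the cluster, in a long annotated region that overlaps Serpina3k. Serpina3c held 0 and 4, or 146 mESC intervals per Mb (95.8 percentile). Serpina3a held 0 and 3, Serpina3b 1 and 3, and Serpina3j and Serpina3k 1 and 3 each, in part the same intervals. Serpina3n, the acute-phase gene of reactive astrocytes and liver, held 0 and 1, and Serpina3g held 0 and 2. Many of these mESC intervals were short. Of the 17, 6 were 50 bp long (35.3%), as were 8 of the 26 mESC intervals of the whole cluster (30.8%), against 15.8% of mESC intervals over the autosomes. With intervals of at least 100 bp, an alternative chosen after seeing the data, the Serpina3 genes kept 4 MEF and 11 mESC intervals. Their mESC share was then 73.3% (44.9 to 92.2) and the cluster share 62.1%, against 56.4% over the autosomes.

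The other 7 chr12 genes held 5 MEF and 7 mESC intervals in 191 kb. Serpina12, the adipose serpin vaspin, held 2 and 2. Serpina10, which with protein Z blocks activated factor X, held 1 and 2. Serpina6, the carrier of glucocorticoids in blood, held 0 and 2, both in its introns, of which the higher had a fold of 3.65. Serpina5, the protein C inhibitor, held 1 and 1, and Serpina9, a serpin of germinal centre B cells, held 1 MEF interval only.

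Near copies were counted because a read from a repeated sequence can be placed at more than one copy, and how such reads were treated is not given in the sources used here. The cluster regions were cut into 200 bp pieces. A piece had a near copy where at least 90% identity over at least 80% of its length was found elsewhere in the same cluster. Copies outside the cluster's regions were not counted, so the shares below do not show how uniquely reads could be placed. Near copies covered 78.7% of pieces in the Serpina1 regions, 22.5% in the Serpina3 regions and 5.24% in the other chr12 regions, and 26.5% on chr1 and 24.8% on chr13. Of the listed intervals, 16 of 67 on chr1 (23.9%), 6 of 37 on chr12 (16.2%) and 12 of 53 on chr13 (22.6%) had one, beside 38.5% of pieces on chr12 as a whole. The Serpina1 genes had the most copied sequence and, of the 3 gene types on chr12, the lowest density in both lists. The Serpina3 genes and the chr1 cluster, with 22.5% and 26.5% of pieces copied, had MEF densities of 15.7 and 77.3 per Mb. Over pieces under 50% soft-masked, the copied shares were 22.4% and 14.2%. The part of copied sequence in these counts was not tested. Only 1 listed site was a near copy of another, between an mESC interval near Serpinb9g (fold 2.10) and the shared Serpinb6a interval named above, 90.7% identical over 300 bp and wholly repeat. That shared interval counts in both lists.

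**Figure D5:**
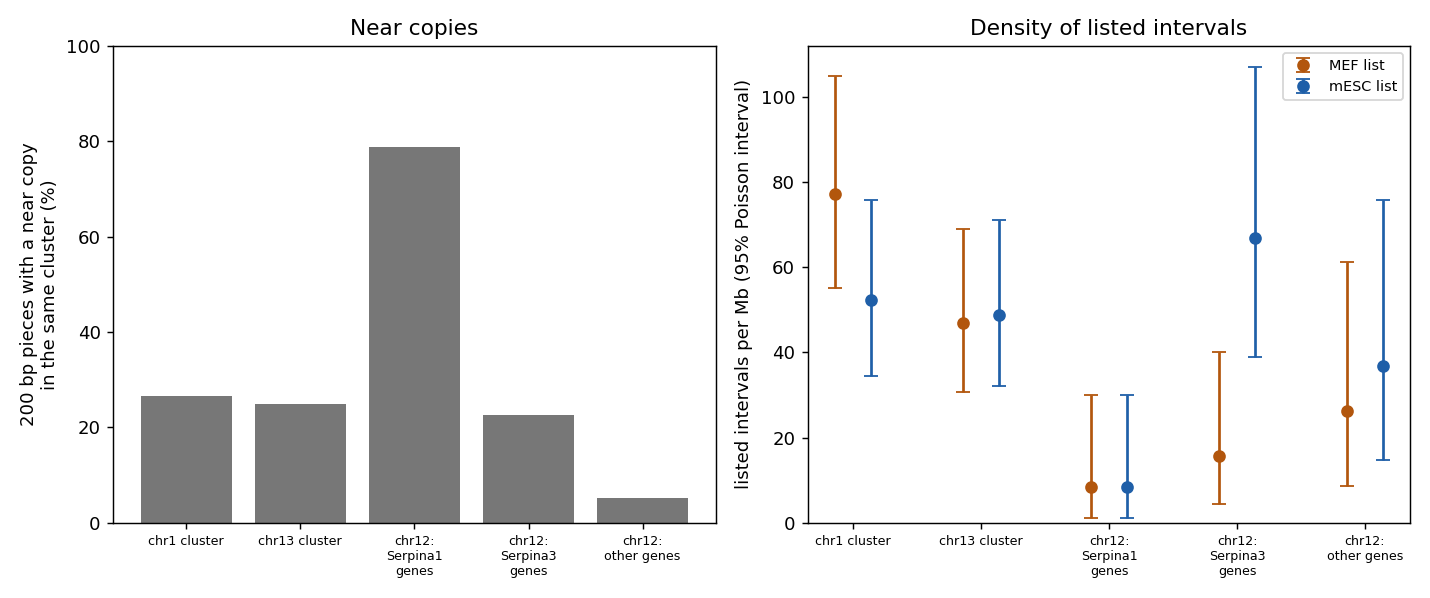
Left, percent of 200 bp pieces with a near copy in the same cluster, for the chr1 and chr13 clusters and 3 types of chr12 genes. Right, listed intervals per Mb with 95% Poisson intervals. The Serpina1 genes have the highest copied share, 78.7%, and 8.28 intervals per Mb in each list.

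On chr13 lies a second cluster of clade B serpins that protect cells from granule proteases. There 7 genes had more MEF and 7 more mESC intervals, and each of the 15 had at least 1. Among all autosomal protein-coding genes, 20.4% had more MEF intervals, 46.8% had more mESC intervals and 16.2% had none. Serpinb6a, an inhibitor of cathepsin G and related proteases, held 4 MEF and 6 mESC intervals in a 105 kb region. Serpinb6b held 5 and 3, at 148 MEF intervals per Mb the 98.9 percentile. Serpinb1a, which guards neutrophils against their own elastase, held 1 and 4, at 137 mESC intervals per Mb the 95 percentile, and its highest was the interval of fold 9.48. Serpinb9, the inhibitor of granzyme B that shields lymphocytes, held 2 and 1. Its paralogs ranged from 0 MEF and 1 mESC interval at Serpinb9b and 2 MEF and 0 mESC at Serpinb9e to 3 and 2 at Serpinb9d. Serpinb6c held 1 and 3, Serpinb6d 2 and 1, Serpinb6e 0 and 1, and Serpinb1b 1 and 0. With gene bodies alone, the cluster's mESC share was 66.7% in place of 50.9%, and its MEF density was 0.805 times the autosomes in place of 1.28, with 8 of its 26 MEF intervals overlapping a gene body.

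The 11 single genes include the serpins best known from blood and tissue. Serpinc1, antithrombin, which heparin activates against thrombin and factor X, held 3 MEF and 7 mESC intervals, or 148 mESC intervals per Mb (96.6 percentile). Of these 10 intervals, 7 lay in the 3 prime UTRs of the neighbours Rc3h1 and Zbtb37, and 3 lay in introns of Serpinc1 itself. Serpind1, heparin cofactor II, held 0 and 2. Serpine2, protease nexin, which blocks thrombin and plasminogen activators at the cell surface, held 3 MEF and 5 mESC intervals, with all 3 MEF intervals overlapping mESC intervals. Serpinf2, antiplasmin, held 3 and 2, and its neighbour Serpinf1, the angiogenesis inhibitor PEDF, held 2 and 1, with 1 site in the regions of both. Serping1, the inhibitor of the first complement component and of kallikrein, held 1 and 1, a site of fold 4.46 in MEFs and 2.47 in mESCs.

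Serpini1, neuroserpin, which blocks tissue plasminogen activator in brain, held 4 MEF and 7 mESC intervals. An intronic site there had fold 2.39 (MEF) and 4.31 (mESC). Serpini2, a pancreatic serpin on the same chromosome, held 3 MEF and 0 mESC intervals, none in its body. Serpine3 held 5 and 5, of which 5 had their midpoint in the 3 prime UTR of the overlapping Ints6. Serpinh1, the collagen chaperone of the endoplasmic reticulum in fibroblasts, held 1 and 1, at an upstream site of fold 2.23 (MEF) and 2.08 (mESC).

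An interval that overlapped the 1 kb on either side of an annotated start was found at 4 of 60 members, Serpinb12, Serpinb13, Serpinb3b and Serpinb9f, against 11.2% of autosomal protein-coding genes. At the Serpinb13 start the 400 bp mESC interval, of fold 5.42, contained the 200 bp MEF interval, of fold 2.25, and at Serpinb3b a 350 bp mESC interval of fold 2.07 contained a 50 bp MEF interval of fold 2.15. Midpoints lay in coding exons of a member for 4 MEF intervals, of Serpinb5 (fold 2.64), Serpinb7 (2.14), Serpinb1b (2.66) and Serpinb6d (2.32), and for 0 mESC intervals. These made up 3.96% of the 101 MEF intervals, beside 0.984% of MEF intervals in the regions of all autosomal protein-coding genes. Midpoints in 3 prime UTRs of any gene numbered 7 in the MEF list (6.93%) and 12 in the mESC list (10.8%), beside 2.32% and 2.21% in the regions of all autosomal protein-coding genes. Of these, 2 and 4 belonged to a member (Serpinb3b and Serpini1 in both lists, Serpinb9 and Serpinb9g in the mESC list). The regions behind these background shares were not matched to the members in length. Of their intervals, 75.6% (MEF) and 75.4% (mESC) were intronic, against 44.6% and 53.2% near members.

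Repeats and base composition differed between the clusters beside the densities. Soft-masked repeat made up 41.9% of the chr1 regions, 25.3% of chr12, 34.3% of chr13 and 26.9% of the single genes, against 33.5% over the autosomes. GC content was 39.0% on chr1, 45.7% on chr12, 41.1% on chr13 and 43.0% at the single genes, against 41.9%. The median GC of the intervals lay between 36.3% and 40.5% in each list in these 4 groups. The part of repeats and base composition in the densities was not tested. With only intervals under 50% soft-masked, the relative densities in the 4 groups stayed within the Poisson intervals of the values above. These densities were still taken over the whole region length, masked bases included, so they do not give the density in unmasked sequence.

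The 14 consensus motifs were looked for, on either strand, in the 300 bp around the centre of each interval. TGANTCA of AP-1 factors occurred in 11 of 101 MEF windows (10.9%) and 7 of 111 mESC windows (6.31%), against 9.27% and 8.18% of windows over all autosomal intervals. CATTCC of TEAD factors occurred in 21.8% and 19.8%, against 16.2% and 16.4%. The liver motifs GTTAAT of HNF1, TTGCNNAA of C/EBP and CAAAGTCCA of HNF4 occurred in 10.9%, 11.9% and 0% of MEF windows and in 16.2%, 12.6% and 0.901% of mESC windows, against 12.8%, 13.4% and 0.341% and 12.7%, 12.8% and 0.328%. TTCNNNGAA of STAT factors, which carry acute-phase signals, occurred in 13.9% and 10.8%, against 9.63% and 9.08%. The stem cell motifs ATGCAAAT of OCT and ACAATGG of SOX factors occurred in 2.97% and 7.92% of MEF windows and 1.80% and 5.41% of mESC windows, against 2.52% and 4.93% in the MEF list and 2.52% and 4.8% in the mESC list. The KLF and SP motif GGGCGG occurred in 4.95% and 1.8%, against 2.57% and 2.85%. The E-box motif CACGTG occurred in 1.98% and 2.7%, against 2.83% and 2.51%. The HSF motif GAANNTTC occurred in 4.95% and 6.31%, against 8.18% and 7.88%. The SMAD motif GTCTAGAC occurred in 0% of both, against 0.173% and 0.201%. The NF-kB motif GGANTTTCC occurred in 0.99% and 1.8%, against 0.76% and 0.7%. The motif AGATAAG of GATA-binding factors occurred in 4.95% and 3.6%, against 4.19% and 4.39%. Each of the list-wide shares of the 14 motifs lay within the exact binomial interval of the member share.

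The proteases that serpins inhibit were set beside them as a list of 23 genes, among them thrombin (F2), plasmin (Plg), the plasminogen activators Plat and Plau, elastase (Elane), cathepsin G (Ctsg) and granzyme B (Gzmb). In all they held 29 MEF and 28 mESC intervals. At least 1 MEF interval was found at 16 of 23 and at least 1 mESC interval at 14, and 4 had none, C1ra, Plat, Plau and Proc. Over all autosomal protein-coding genes, these shares were 70.3%, 77.3% and 16.2%. The median density was 33.6 MEF and 32.9 mESC intervals per Mb, beside 33.9 and 44.8 for the Serpin genes and 32.7 and 41.9 for all autosomal protein-coding genes. In the per-gene test 1 protease had enough intervals, Masp1 of the complement lectin pathway, with 4 MEF and 8 mESC intervals and an adjusted p of 1, and 0 were called.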

How the data were processed

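The members and all gene lists, motifs and alternatives were chosen with earlier results of these data known. Each list gives intervals by position with 1 fold, a linear ratio the authors deposited per the file headers. Bowtie2 and SAMtools are named in the submitters' processing notes, which also name hg38, while the design text names mm10, and mm10 was used. The sources used here give neither caller, scaling, pooling nor depth. The lists hold no values per library, so no SD or n can be given.

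Computed here with Python 3.11.15, scipy 1.17.1 and statsmodels 0.14.6 were the overlaps of at least 1 bp with gene regions (GENCODE M21, GRCm38.p6), densities, and shares with 95% exact binomial intervals. So was the per-gene exact binomial test, with Benjamini-Hochberg adjustment at 0.05 over genes with at least 10 intervals. It was tried on simulated independent counts, which leave out the overlap between the lists and so do not show how it behaves on them. Autosomal density is the count over the autosomes divided by their length without N. Soft-masked letters of the assembly were taken as repeat. Near copies came from BLAST 2.17.0. A cluster was at least 5 genes with gaps of at most 500 kb. Exon, UTR and intron were read at the interval midpoint, and a member's promoter interval overlapped the 1 kb on either side of one of its transcript starts by at least 1 bp.

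Named by rule were the single genes, of which 1 is counted in the totals but not reported here by name; in each cluster the 3 members with the most intervals and those with none; Serpina1a to Serpina1e, Serpina3n, Serpinb5, Serpinb2, Serpinb9 and Serpinb6a; and intervals among the 3 highest folds of a list, in a member's promoter, coding exon or 3 prime UTR, with identical coordinates in both lists, or near copies of each other. Members named outside this rule, the division of the chr12 genes, the 1 Mb bins and the minimum of 100 bp were chosen after values were seen, as was the printed pair of a listed interval and its unlisted copy. Some motif strings overlap.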

Additional observations from a re-analysis of the deposited data

How the results depend on the processing

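For the densities, shares and counts of genes, 120 alternative values stayed within the counting interval of the value reported (for counts, within 1.5 times) and 13 did not. Relative MEF density ranged from 1.64 to 2.65 on chr1 and from 0.239 to 0.546 on chr12 over 8 alternatives each. With gene bodies only, relative MEF density on chr13 was 0.805 and the chr13 mESC share 66.7%. Of the 60 genes, 24 then had a MEF and 28 an mESC interval, beside 46.5% and 51.8% of all autosomal protein-coding genes. With intervals at or above their list's median fold, the chr12 mESC share was 84.2%. In that setting 27 of the 60 genes had a MEF interval, beside 51% of all autosomal protein-coding genes. With partners likewise, 100% of the 3 chr12 MEF intervals and 26.7% of single-gene mESC intervals were shared, against 40% and 31% over the autosomes. With list-only intervals the chr1 mESC share was 20.8%, against 60.7% over the autosomes. With 80% identity, near copies were found for 38.8% of chr1 and 37.8% of chr12 intervals, beside 37.4% and 53.1% of 200 bp pieces. With 95% identity they were found for 8.96% and 5.41% of intervals, beside 11.9% and 28.8% of pieces. The per-gene test called 0 members under its 4 alternatives, with 0 members at an unadjusted p under 0.05 in each and 0 members with enough list-only intervals to test. With intervals as listed in place of 300 bp windows, 27 motif shares stayed within their interval and 1, TEAD in MEFs, was 13.9% in place of 21.8%. The causes of the changes were not tested. No paired analysis was possible because the lists hold no values per library. Nor could a replicate be left out. Depth behind each fold is unknown.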
